A study of Mus musculus with 2 samples.

Results

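The Mir106a to Mir363 polycistron is a run of 6 microRNA (miRNA) genes, Mir106a, Mir18b, Mir20b, Mir19b-2, Mir92-2 and Mir363, on mouse chromosome X. All 6 were found among the 1973 miRNA genes of the deposited tables, by Ensembl identifier with the version dropped and GENCODE symbol. They were chosen on the difference between the libraries described here and on their shared position, so levels and ratios are given as a description and carry no test. The tissue was neural tube, which gives rise to brain and spinal cord, from B6NCrl mouse embryos at day 15.5. The samples form a single group of 2 biological replicates, for which the labels name no treatment. Library 1 pooled 78 embryos and library 2 pooled 62, males and females mixed, and the labels give no ratio of the sexes. No other genotype, treatment or age was compared.

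A polycistron is transcribed as 1 long precursor from which Drosha cuts each hairpin, Dicer trims the hairpin to a duplex, and 1 strand is loaded into an Argonaute protein. The loaded miRNA finds messenger RNAs mainly through its seed, bases 2 to 8 from the 5′ end. The Mir106a cluster arose with the Mir17 cluster (chromosome 14) and the Mir106b cluster (chromosome 5) by duplication. Its relatives restrain cell cycle inhibitors such as Cdkn1a and the death factor Bcl2l11, and the Mir17 cluster is known for keeping progenitors dividing, neural progenitors included. Mice without the Mir17 cluster die at birth, whereas mice without the Mir106a cluster are viable.

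The mature sequences show which members can be told apart by a read and which share targets. They are from RefSeq, build GRCm38.p6, which held all 6 members, and are written 5′ to 3′ with the seed in capitals. The arm usually reported as the abundant one is given first for each member, followed by Mir17 and Mir20a of the chromosome 14 paralog for comparison.
miR-106a-5p: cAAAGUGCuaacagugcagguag
miR-20b-5p: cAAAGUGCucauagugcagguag
miR-17-5p: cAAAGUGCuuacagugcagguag
miR-20a-5p: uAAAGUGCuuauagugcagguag
miR-18b-5p: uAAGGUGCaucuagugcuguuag
miR-18a-5p: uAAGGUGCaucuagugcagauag
miR-19b-3p: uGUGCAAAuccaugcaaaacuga
miR-92a-3p: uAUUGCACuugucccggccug
miR-363-3p: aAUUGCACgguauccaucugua
The opposite arms of Mir19b-2 and Mir92-2 are shown because they, unlike miR-19b-3p and miR-92a-3p, differ from those of the paralogs.
miR-19b-2-5p: aGUUUUGCagauuugcaguucagc
miR-92a-2-5p: aGGUGGGGauugguggcauuac

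The 6 members thus carry 4 seeds on these main arms. Mir106a and Mir20b share AAAGUGC, which 7 miRNA genes of the tables carry, among them Mir17, Mir20a, Mir106b and Mir93. Mir92-2 and Mir363 share AUUGCAC with 5 other genes of the tables, namely Mir92-1, Mir25, Mir32, Mir92b and Mir367. Mir18b shares AAGGUGC with Mir18, and Mir19b-2 shares GUGCAAA with Mir19a and Mir19b-1. Counting positions from 1 at the 5′ end, miR-106a-5p differs from miR-17-5p by A10U alone over 23 bases. The difference between miR-20b-5p and miR-20a-5p is C1U and C10U, and that between miR-20b-5p and miR-106a-5p, read from the latter, is A10C and C12U. The change from miR-18b-5p to miR-18a-5p is U18A and U20A. All of these lie outside the seed.

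Copies decide what could be counted. The miR-19b-3p and miR-92a-3p sequences are identical in the copies on chromosome X and chromosome 14 (Mir19b-1 and Mir92-1). Reads that aligned to several places made up 29.4% of all reads in library 1 and 29.7% in library 2 and entered no gene. The counts of Mir19b-2 and Mir92-2 are therefore uncertain and can miss the reads of their main arm. The tables give 1 count per gene and do not say from which arm it came. No other mature arm of the members occurs at a different miRNA gene of the RefSeq table. The number of mismatches that the aligner allowed is not given in the sources used here, so whether reads of the abundant Mir17 were assigned to Mir106a was not tested.

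On build mm10 the cluster spans 875 bases of chromosome X on the minus strand, from 52741693 to 52742567. In the direction of transcription Mir106a (ENSMUSG00000065456.1, 52742503 to 52742567) comes first and overlaps the last 5 bases of an exon of the non-coding gene Kis2. It is followed by Mir18b (52742331 to 52742413), Mir20b (52742113 to 52742192), Mir19b-2 (52741983 to 52742066), Mir92-2 (52741838 to 52741928) and Mir363 (52741693 to 52741767). These 5 lie outside any other annotated gene on their strand in GENCODE M21. The gaps between hairpins run from 46 bases, between Mir20b and Mir19b-2, to 138 bases, between Mir18b and Mir20b. The nearest other miRNA genes are Mir450b, 305 kb upstream, and Mir717, 319 kb downstream.

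**Figure D1:**
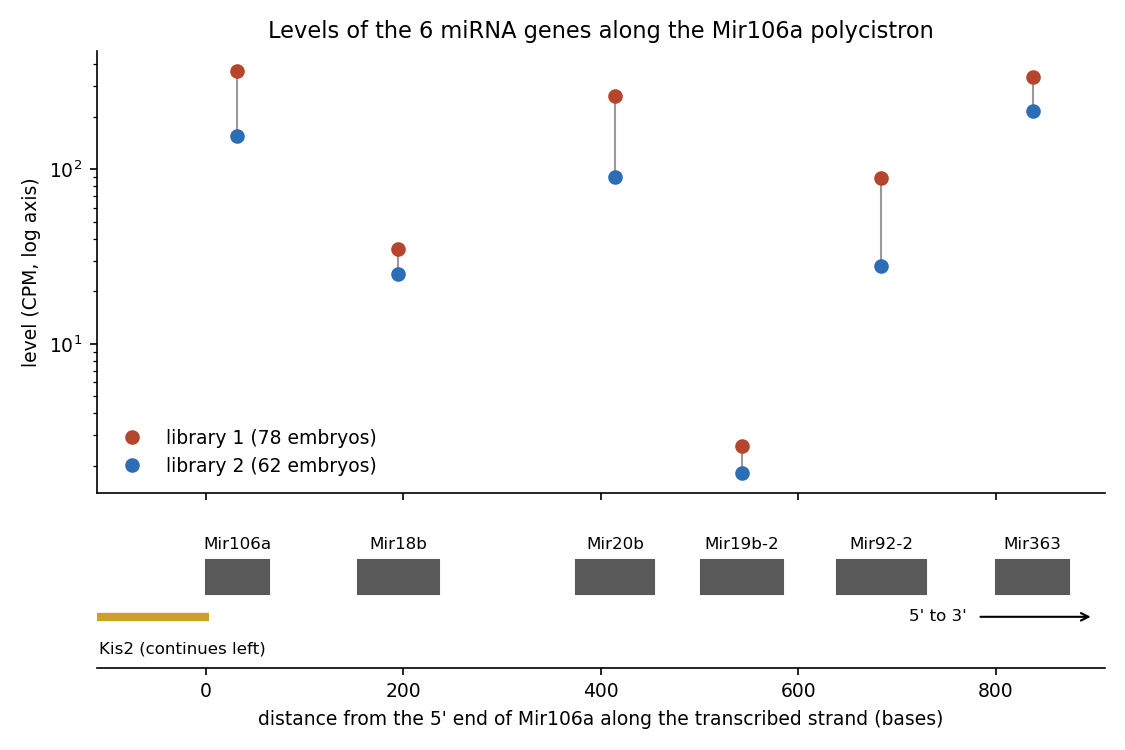
Level of each member in library 1 and library 2 in CPM (normalised read counts, log axis) above a map of the hairpins, by distance in bases from the 5′ end of Mir106a, with Kis2 as a bar. Each member lay higher in library 1, and levels did not fall or climb steadily along the cluster: Mir363, the last hairpin, was close to Mir106a, the first, and Mir19b-2 was lowest with 2.60 and 1.82 CPM. Reads of the main arms of Mir19b-2 and Mir92-2 can be missing.

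Levels are in CPM, a gene's reads on the sense strand per 1000000 such reads over all miRNA genes. Library 1 held 4228685 of these reads and library 2 held 6039889. A mature miRNA of the cluster is 21 to 24 bases long and is read whole, so counts of different members were compared without a length correction. A gene was taken as detected with at least 10 counts in each library, which 363 genes reached. The tissue label was set against its markers: 8 of the 12 neural miRNA genes measured were detected, against 363 of all 1973 genes. Detection at this minimum cannot tell tissues apart, since 7 of 7 epithelial markers were detected too. Among the neural genes, Mir9-2 and the 3 Mir124a copies were not detected. Reads that aligned to several places entered no gene, so a gene with identical copies can miss the minimum without being low. Whether this held for Mir9-2 and the Mir124a copies was not tested. The neural list added up to 12478 CPM for library 1 and to 13343 for library 2. In such bulk samples, fewer cells of a type and less RNA per cell cannot be told apart.

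The polycistron as a whole was a minor part of the miRNA reads. Its members summed to 4643 counts in library 1 and 3112 counts in library 2. As a share of all miRNA gene counts this was 0.110% for library 1, with a 95% Wilson interval from 0.107 to 0.113, and 0.0515% for library 2 (0.0497 to 0.0534). In CPM the sum was 1098 in library 1 and 515 in library 2, with a mean of 807 ± 412 (SD, n = 2). Library 1 was 2.13-fold higher, with a 95% exact (Clopper-Pearson) interval of 2.04 to 2.23. This and all other intervals cover counting error only, since PCR copies of a read are not separate molecules and each library is a single pool. All 6 members were detected, Mir19b-2 just above the minimum. No read fell on the opposite strand of a member in either library, where 3 counts, the limit that a count of 0 allows, would be 0.709 CPM in library 1 and 0.497 CPM in library 2.

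Mir106a and Mir20b carry the seed through which the Mir17 family targets Cdkn1a and E2f1. Mir106a had 1551 counts in library 1 and 936 in library 2, or 367 and 155 CPM. Its mean level of 261 ± 150 CPM (SD, n = 2) ranked 145th of the 363 detected genes. Library 1 was 2.37-fold higher (2.18 to 2.57), a log2 ratio of 1.24. Mir20b had 1121 and 545 counts, or 265 and 90.2 CPM, with a mean of 178 ± 124 CPM. It was 2.94-fold higher in library 1 (2.65 to 3.26), a log2 ratio of 1.55. For both genes the deeper library, library 2, gave fewer reads.

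Mir92-2 and Mir363 carry the seed of the miR-25 and miR-92 family, whose members are known from blood vessel growth and from progenitor cells. Mir92-2 had 376 counts in library 1 and 169 in library 2, or 88.9 and 28.0 CPM (mean 58.4 ± 43.1). At 3.18-fold (2.64 to 3.83) it had the highest ratio of the members, a log2 ratio of 1.67. Mir363 had 1436 and 1299 counts, or 340 and 215 CPM (mean 277 ± 88.0), and ranked 142nd. It was 1.58-fold higher in library 1 (1.46 to 1.70). These neighbours, separated by 70 bases, thus had counting intervals that did not overlap, with Mir92-2 above Mir363. The counts of Mir92-2 can miss reads of its main arm.

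Mir18b and Mir19b-2 had the fewest counts of the members, and for Mir19b-2 reads of the main arm can be missing. Mir18b, of the miR-18 family, had 148 counts in library 1 and 152 in library 2, or 35.0 and 25.2 CPM (mean 30.1 ± 6.95). Its ratio of 1.39 (1.10 to 1.76) was the lowest of the members. Mir19b-2, whose main arm belongs to the miR-19 family, had 11 counts in each library (95% exact Poisson interval 5.49 to 19.7). It reached 2.60 and 1.82 CPM and ranked 362nd of the 363 detected genes. With so few counts its ratio of 1.43 (0.562 to 3.63) did not show a direction.

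By mean level the order was Mir363, Mir106a, Mir20b, Mir92-2, Mir18b and Mir19b-2. Mir363 and Mir106a did not differ beyond the spread between libraries: Mir106a led in library 1 and Mir363 in library 2. Mir106a was 1.38-fold above Mir20b in library 1 and 1.72-fold in library 2, but their ranges over the libraries overlapped. Mir20b stood 2.98-fold and 3.22-fold above Mir92-2 with nearly no gap, since 90.2 CPM in library 2 was barely above the 88.9 CPM of Mir92-2 in library 1. Mir92-2 was 2.54-fold above Mir18b in library 1 and 1.11-fold in library 2, with overlapping ranges. By counts Mir18b was clear of Mir19b-2, 13.5-fold and 13.8-fold higher. The places of Mir92-2 and Mir19b-2 in this order are uncertain, because reads of their main arms can be missing.

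**Figure D2:**
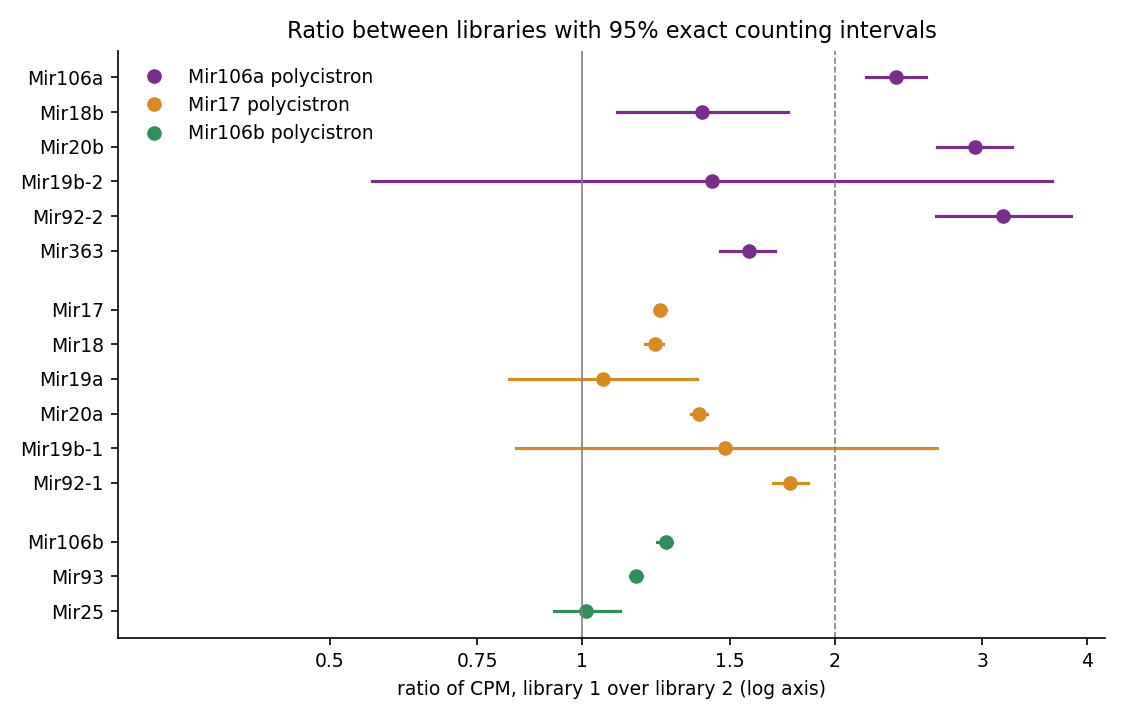
Ratio of CPM in library 1 to library 2 (log axis) for the members and for the genes of the Mir17 and Mir106b polycistrons, with 95% exact counting intervals; lines mark 1 and 2. Mir106a, Mir20b and Mir92-2 lay past 2-fold, and every Mir17 and Mir106b polycistron gene lay below it, though the interval of Mir19b-1 crosses 2.

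All 6 members were higher in library 1, as were 55.6% of the 363 detected genes. At least 2-fold were 3 members (Mir106a, Mir20b and Mir92-2), against 6.06% of the detected genes, and at least 1.5-fold were 4, with Mir363 added, against 12.4%. Since the members were chosen on this difference, nothing is read from these counts. The members' median log2 ratio was 0.95 and that of all detected genes 0.03. In the other direction 1 detected gene was at least 2-fold higher in library 2, Mir5126 with a log2 ratio of -1.21, named after its value was seen.

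**Figure D3:**
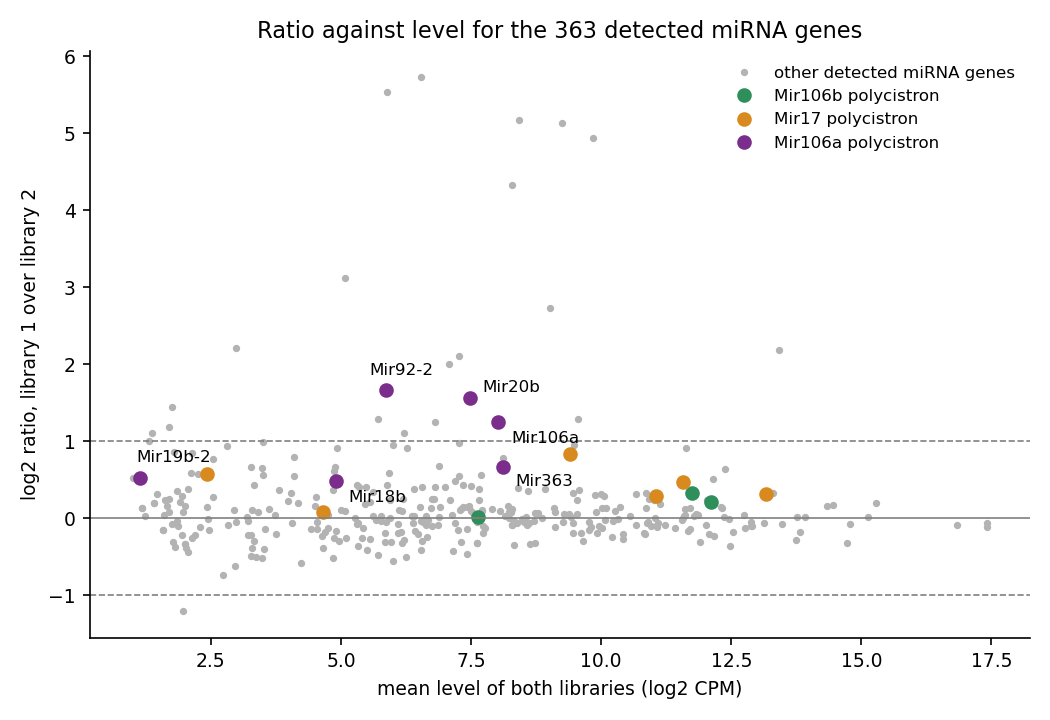
Log2 ratio of library 1 to library 2 against mean level (log2 CPM) for the 363 detected miRNA genes; dashed lines mark 2-fold in each direction. Most genes lay near 0, around a median of 0.03, while Mir106a, Mir20b and Mir92-2 lay above the upper dashed line at middle levels.

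The make-up of the cluster's reads shifted with the library. Of the cluster's counts Mir363 gave 30.9% for library 1 (95% Wilson bounds 29.6 to 32.3) and 41.7% for library 2 (40.0 to 43.5). Mir20b went the other way, with 24.1% (22.9 to 25.4) and 17.5% (16.2 to 18.9). Mir106a gave 33.4% in library 1 (32.1 to 34.8) and 30.1% in library 2 (28.5 to 31.7). Mir92-2 gave 8.10% (7.35 to 8.92) and 5.43% (4.69 to 6.28). For Mir18b the share was 3.19% (2.72 to 3.73) and 4.88% (4.18 to 5.70), and for Mir19b-2 it was 0.237% (0.132 to 0.424) and 0.353% (0.197 to 0.632). For every member but Mir19b-2 the intervals did not overlap between the libraries. Without Mir363 the log2 ratio of the sum was 1.34 in place of 1.09.

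The paralogs were far more abundant. The 6 genes of the Mir17 polycistron had a summed level of 17009 CPM in library 1 against 13251 in library 2, and the 3 genes of the Mir106b polycistron one of 8738 against 7312 CPM. Of the counts of all 3 polycistrons the Mir106a cluster took 4.09% for library 1 (Wilson, 3.98 to 4.21) and 2.44% for library 2 (2.36 to 2.53). Member by member, Mir17 stood 27.9-fold above Mir106a in library 1 and 53.3-fold in library 2. Mir20a stood 13.3-fold and 28.2-fold above Mir20b, and Mir18 66.9-fold and 76.4-fold above Mir18b. In counts the gap was narrower for the copied genes, with Mir92-1 9.77-fold and 17.5-fold above Mir92-2, and Mir19b-1 2.45-fold and 2.36-fold above Mir19b-2. Reads of miR-92a-3p and miR-19b-3p can be missing from both genes of a pair, so whether their levels lay closer was not tested. Mir106b stood 10.4-fold and 19.6-fold above Mir106a, and Mir93 17.8-fold and 45.2-fold above Mir20b. Mir363 was set beside Mir25 of the Mir106b polycistron, which shares its seed. Its 340 and 215 CPM lay above the 199 and 197 CPM of Mir25. Mir92-1 of the Mir17 polycistron, which has the same seed, lay above Mir363 with 869 and 490 CPM.

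**Figure D4:**
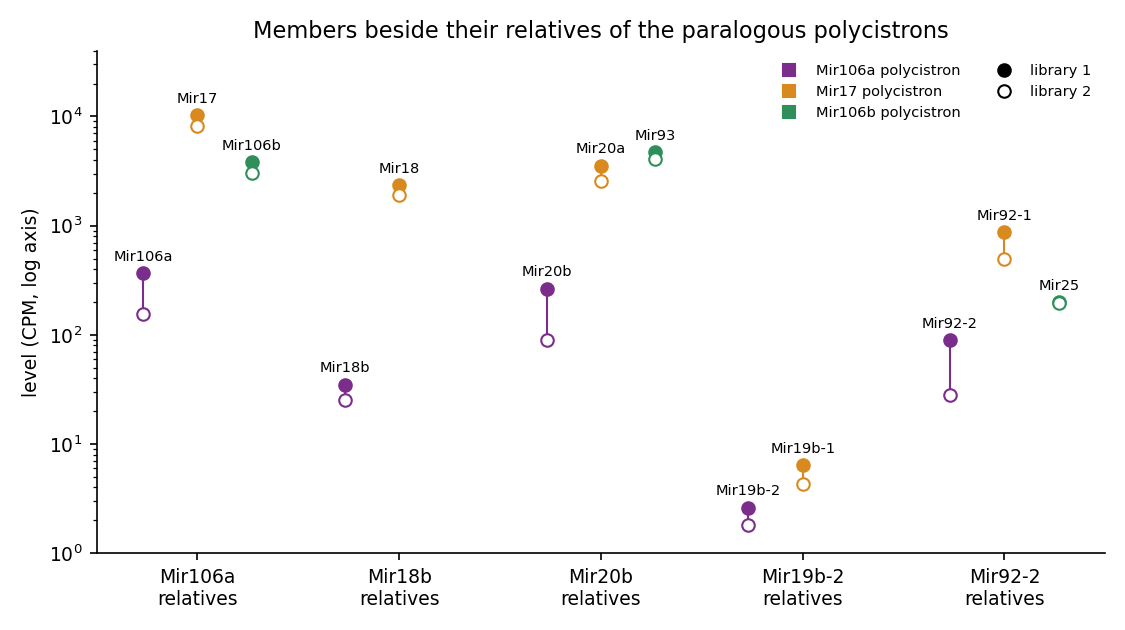
Level in CPM (log axis) of the first 5 members beside the matching genes of the Mir17 and Mir106b polycistrons; filled points are library 1 and open points library 2. Each member lay below its relatives in both libraries, with the smallest distance, 2.24-fold in library 1, from Mir92-2 to Mir25. In library 2 that pair was 7.03-fold apart. The counts of Mir92-2, Mir92-1, Mir19b-2 and Mir19b-1 can miss reads of their main arm.

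The members' share of the counts differed between the seeds of the main arms. Mir106a and Mir20b gave 2.75% of the counts of the 7 genes with the AAAGUGC seed in library 1 (2.65 to 2.86) and 1.35% in library 2 (1.28 to 1.42). For AUUGCAC, Mir363 and Mir92-2 gave 13.0% in library 1 (12.4 to 13.5) and 8.18% in library 2 (7.78 to 8.59), and that share is uncertain because reads of miR-92a-3p can be missing. Mir18b gave 1.47% of the AAGGUGC counts (1.26 to 1.73) and 1.29% (1.10 to 1.51). For GUGCAAA, Mir19b-2 gave 7.48% of 147 counts in library 1 (4.23 to 12.9) and 5.98% of 184 counts in library 2 (3.37 to 10.4), which is uncertain in the same way. These counts are per gene and hold both arms.

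As sums, the paralogs had smaller ratios between libraries. Gene by gene the ratios overlapped: Mir92-1 at 1.77 lay above Mir363 (1.58), Mir19b-2 (1.43) and Mir18b (1.39). The sum of the Mir17 polycistron was 1.28-fold higher in library 1 (1.27 to 1.30), with all 6 genes higher and 0 of them past 2-fold. Its genes ran from Mir19a with 1.06 (0.819 to 1.37) to Mir92-1 with 1.77 (1.69 to 1.86), by way of Mir18 with 1.22, Mir17 with 1.24, Mir20a with 1.38 and Mir19b-1 with 1.48. The Mir106b polycistron sum was 1.19-fold higher (1.18 to 1.21), with Mir25 at 1.01 (0.927 to 1.11), Mir93 at 1.16 and Mir106b at 1.26. Within both the Mir106a and the Mir17 cluster, the Mir92 copy had the highest ratio. Both copies hold the same miR-92a-3p, so reads of that arm can be missing from both counts. The other genes with related seeds, Mir302a to Mir302d, Mir367, the Mir290 to Mir295 group, Mir32 and Mir92b, were analysed for 14 of 16. Of these 8 were detected, 2 were higher in library 1, and their median log2 ratio was -0.30.

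The rest of chromosome X gave values near those of all genes. Of the 107 miRNA genes of chromosome X outside the Mir106a cluster and the Mir322 to Mir450b group, 27 were detected, with a median log2 ratio of -0.02 and 1 gene past 2-fold, Mir224 with 2.44, named here after its value was seen. The Mir322 to Mir450b group, a separate X-linked cluster whose Mir322 and Mir503 slow the cell cycle, had a summed level of 6734 CPM in library 1 against 5962 in library 2. Of its 7 genes 5 were detected, all higher in library 1 and 0 past 2-fold: Mir322 at 1.10, Mir503 at 1.18, Mir351 at 1.23, Mir542 at 1.46 and Mir450b at 1.58. Below the minimum, Mir450-1 had 30 and 7 counts, a ratio of 6.12 (2.63 to 16.5). Mir450-2, also below it, had 7 and 9 counts, a ratio of 1.11 (0.352 to 3.35).

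The genes most alike in ratio were picked from 265 with at least 100 counts in each library, as the 5 whose log2 ratio lay nearest to the 1.09 of the cluster sum. With 2 libraries this likeness rests on 1 ratio per gene. They were Mir194-2 (log2 ratio 1.11), Mir223 (0.97), Mir31 (0.95), Mir203 (0.95) and Mir155 (1.24). Their levels in library 1 and library 2 were 101 and 47.0 CPM for Mir194-2, 204 and 104 CPM for Mir223, 84.9 and 43.9 CPM for Mir31, 934 and 485 CPM for Mir203, and 158 and 66.7 CPM for Mir155. Mir194-2 also stands on the gut and endocrine marker list, Mir203 on the epithelial list, and Mir223 and Mir155 on the leukocyte list.

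The sums of several marker lists of other cell types were also higher in library 1. The epithelial list (7 of 7 detected) had 5458 CPM in library 1 against 631 in library 2. The gut and endocrine list (4 of 5 detected) summed to 1286 and 245 CPM, the mesenchyme and smooth muscle list (6 of 7) to 22420 and 7594 CPM, and the leukocyte list (3 of 4) to 433 and 237 CPM. Genes within a list differed. The mesenchyme and smooth muscle ratios ran from 0.987 to 4.54, with 3 of 6 detected genes past 2-fold, against 6.06% of all detected genes. Most of that sum was Mir143, the gene at 4.54, named after its value was seen. The leukocyte ratios ran from 1.07 to 2.37, with 1 of 3 past 2-fold. Mir142b of the leukocyte list was at 0 on its sense strand in both libraries, and reads on its opposite strand are not part of these sums. Other lists changed less, namely the endothelial gene Mir126a with 22011 and 19666 CPM, the erythroid list (3 of 3) with 202 and 183 CPM, and the pluripotency list (6 of 11, with Mir367 and Mir290a at 0) with 205 and 258 CPM. Whether cells of these types had a part in the ratio of the Mir106a cluster was not tested.

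**Figure D5:**
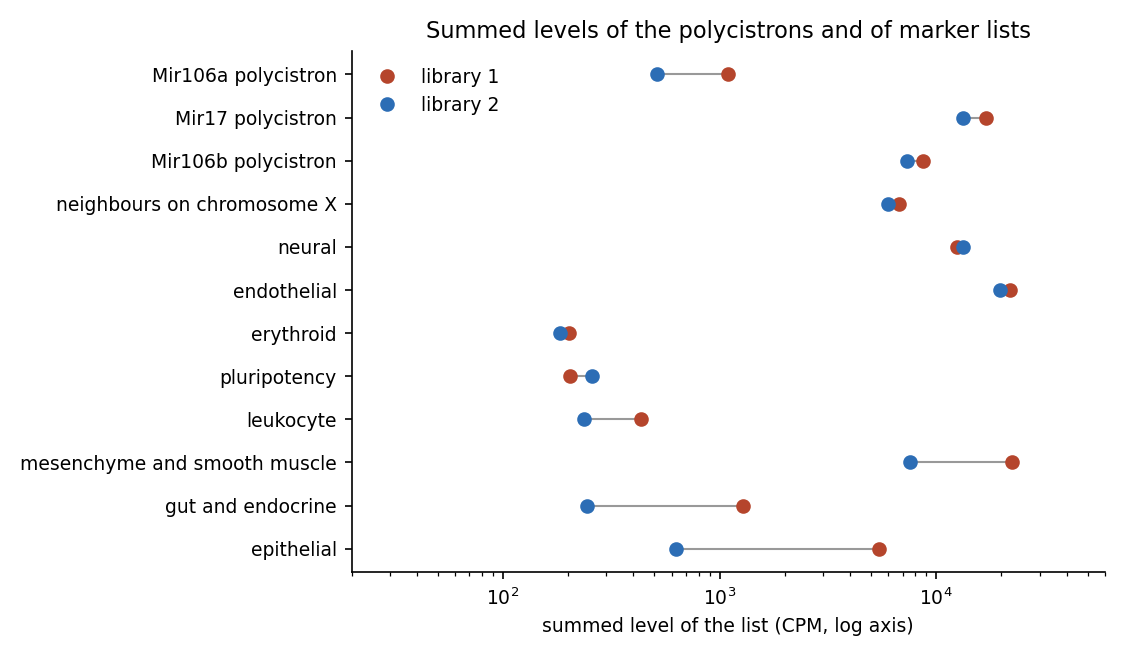
Summed level in CPM (log axis) of the 3 polycistrons, the X-linked neighbours and marker lists in library 1 and library 2. The Mir106a cluster went from 1098 to 515 CPM, a wider step than its paralogs and a narrower one than the epithelial list, which went from 5458 to 631 CPM.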

How the data were processed

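MicroRNA-seq was made from 2 neural tube pools. The authors deposited whole-number counts of reads for each miRNA gene, made on mm10 with annotation M4, per the README texts. Which aligner and counter were run is not given in the sources used here. The tables have no header: of the 2 single-strand columns, the one holding nearly all gene reads was taken as sense. The 4 entries naming no gene, 45.7% and 47.7% of the 7925935 and 11738914 reads, were left out of library sizes. Of 1973 identifiers, 1894 matched GENCODE M21, all members with their version. Ratios carry 95% Clopper-Pearson intervals, shares Wilson intervals, and the interval code was tested on simulated data. A single group of 2 allows no test between groups. Named are all members, the genes of both paralogous polycistrons and of the X-linked neighbours, and the 5 genes nearest in ratio, of at least 100 counts. The members and lists were chosen with earlier results of these data known. RefSeq or GENCODE spellings replaced list names where they differed (Mir450-1, Mir450-2, Mir292, Mir486). Alternatives used edgeR 4.0.16 (TMM), DESeq2 1.42.0 size factors, other library sizes, strands, filters and folds, with R 4.3.3, Python 3.11.15, pandas 2.3.3, numpy 2.4.6, scipy 1.17.1 and matplotlib 3.10.9.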

Additional observations from a re-analysis of the deposited data

How the results depend on the processing

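No ratio between the libraries changed direction under any alternative run. Leaving out a member could not change it, because all 6 members were higher in library 1. A level has no direction to reverse. The 30 alternative values of the members' ratios all stayed within the counting interval. Of the 42 alternative values of their levels 9 moved by more than the SD between libraries. Levels with a replicate left out could not do so, because with 2 libraries the mean then shifts by less than the SD. With library sizes that leave out Mir10a, Mir10b and Mir99a, which held 45.1% and 48.0% of the counts, the cluster's mean level was 1497 CPM in place of 807, and its log2 ratio 1.01 in place of 1.09. With the reads in no gene added to the library sizes they were 425 CPM and 1.14. That ratio was 1.02 without Mir106a, 0.97 without Mir20b and 1.34 without Mir363. Unlike the members' ratios, these values and the 1.01 lay outside the counting interval of the cluster sum. The count of genes at least 2-fold higher in library 1 was 22 of 363, against 129 of 709 with no filter and 0.5 added to both counts, and 45 at 1.5-fold; the members past 2-fold stayed at 3 under each scaling and filter. Leaving out either replicate put the level between 515 and 1098 CPM and the share of the 3 polycistrons between 2.44% and 4.09%; a ratio could not then be made. No paired analysis was possible because the series has a single group. Mir19b-2, with 11 counts in each library, is limited most by low counts, and reads of its main arm can be missing.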
